A study of Mus musculus with 6 samples.

Results

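The 44 genes described here are those whose symbol on the array's annotation starts with Nduf, the name stem of the nuclear genes of respiratory complex I, and they are 44 of the 18193 genes that could be named. They were picked by symbol alone, from probe sets assigned to exactly 1 gene, and 88 probe sets measured them, 22 genes through 1 probe set and 22 through 2 to 6. Another 10 probe sets with an Nduf symbol were shared with a second gene and were not used, so that Ndufs6 and Ndufa11 are not analysed here. Expression was compared between endothelial cells from Matrigel plugs reconstituted with recombinant microfibrillar-associated protein 5 (MFAP5 group, 3 arrays) and cells from plugs without it (Control group, 3 arrays). Matrigel is a gel of basement membrane proteins, and MFAP5 is a secreted glycoprotein of elastic microfibrils. All plugs were placed intraperitoneally in nude mice of the Balb/c strain, which lack a thymus and so most T cells. The series' design text calls the 3 samples of a group independent. Neither the labels nor that text state the dose of MFAP5, the age of the mice, whether each sample came from its own animal, or the method that isolated the endothelial cells, so p-values measure the spread between these samples. RNA was read on 1-colour Affymetrix mouse genome arrays, on which a probe set is a group of short probes read as 1 value.

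Complex I takes electrons from NADH and passes them to ubiquinone in the inner mitochondrial membrane, and it pumps protons as it does so. It has a matrix arm, in which the N module oxidises NADH and the Q module reduces ubiquinone, and a membrane arm with a proximal and a distal part. A small set of core subunits carries the flavin, the iron-sulfur clusters and the proton channels. The other, accessory subunits surround the core, and assembly factors help to build the enzyme without staying in it. Endothelial cells draw much of their ATP from glycolysis, whereas brown fat, heart and oxidative muscle are rich in complex I.

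The values were log2 signals centred for each probe set on its median over the 6 arrays. A value therefore says how an array stood relative to the other arrays, not how abundant a transcript was, and levels of different genes cannot be set against each other. Because the centre lies midway between the third and the fourth value in rank, these 2 values mirror each other around 0 in a gene with 1 probe set. The log base was taken as 2, and percentages below rest on that. The array medians lay between -0.026 and 0 in the MFAP5 group and between -0.012 and 0.049 in the Control group. Control replicate 1 stood apart: it correlated with Control replicates 2 and 3 at -0.028 and 0.020 over all probe sets, while those 2 correlated with each other at 0.69, as a description only, since probe sets of an array are not independent. Bacterial spike-in transcripts averaged -0.038, -0.0078 and -0.0065 in MFAP5 replicates 1 to 3, against -0.32, 0.64 and 0.65 in Control replicates 1 to 3 (exact permutation test, two-sided, p = 0.4, where 0.1 is the smallest possible).

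Complex I genes were mostly a little lower with MFAP5. Of the 44 genes, 42 had a lower mean in the MFAP5 arrays, where 65.6% of all genes did, and the median log2 difference was -0.31, against -0.08 over all 18193 genes. The groups did not overlap in 32 of the 44 genes, all of them lower with MFAP5, where 24.3% of all genes did not overlap, 17.8% lower and 6.51% higher. Limma, a linear model with variances moderated across all genes, called 5 of the 44 lower and 0 higher at a Benjamini-Hochberg adjusted p under 0.05, beside 2.79% and 0.759% of all genes. The 5 were Ndufs1, Ndufs3, Ndufa10, Ndufv1 and Ndufb3. A further 9 had an adjusted p between 0.05 and 0.1, and 29 were lower at an unadjusted p under 0.05 (14.4% of all genes) with 0 higher (5.33% of all genes). The standard deviation within groups, as a median over genes, was 0.10 for complex I genes and 0.15 for all genes. Fat cell markers moved with the same groups, with a median difference of -3.17 over 10 genes, and their part in the complex I differences was not tested. In bulk RNA, fewer cells of a type and less RNA per cell cannot be told apart.

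**Figure D1:**
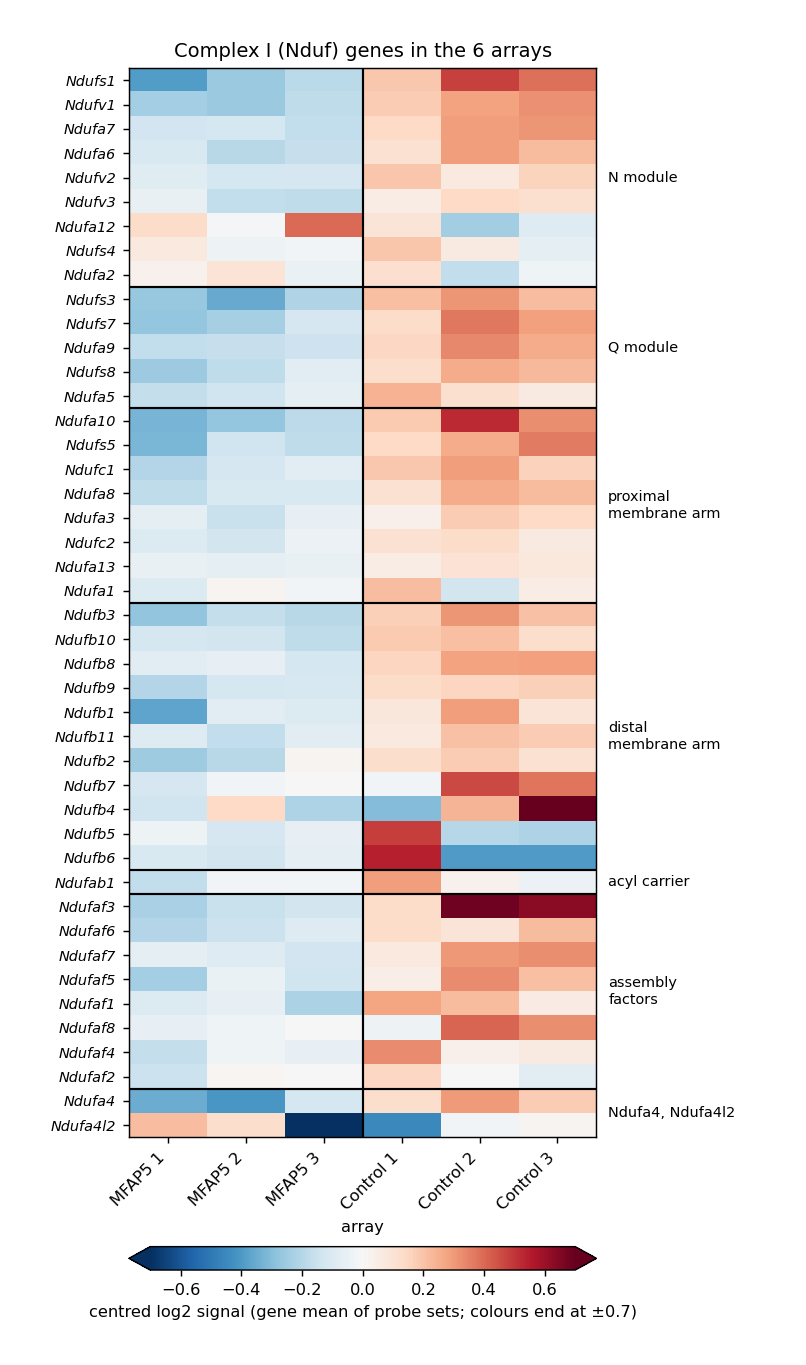
Centred log2 signal of the 44 complex I (Nduf) genes in the 3 MFAP5 arrays (left of the line) and the 3 Control arrays, in blocks by role. Most rows are blue with MFAP5 and red in the controls, and the groups overlap in 12 genes, among them Ndufa12, Ndufa2, Ndufb4, Ndufb5, Ndufb6 and Ndufa4l2.

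The calls depended on single arrays, while the median difference of the 44 genes stayed below 0. Without Control replicate 1, limma called 19 of the 44 lower, beside 1914 of all 18193 genes. Without Control replicate 2, Control replicate 3, MFAP5 replicate 1 or MFAP5 replicate 2 it called 0 of the 44, beside 205 to 347 of all genes, with 21 to 23 of the 44 lower at an unadjusted p under 0.05. Without MFAP5 replicate 3 it called 3, beside 426 of all genes. When the spike-in level entered the model as a covariate it called 0 (30 at an unadjusted p under 0.05), beside 316 of all genes. The unmoderated statistic also called 0 (31 at an unadjusted p under 0.05), beside 1 of all genes. Array weights, which give less influence to arrays far from their group, gave 26 of the 44, beside 2879 of all 18193 genes. The median over the 44 genes lay between -0.36 and -0.29 whichever array was left out, against -0.31 with all arrays. These fits share most arrays, so their medians are not independent.

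The N module, which holds the flavin and takes up NADH, had 9 measured genes. Of these 2 fell and 0 rose, beside 2.79% and 0.759% of all genes. Ndufs1, the largest core subunit and carrier of several iron-sulfur clusters, had signals of -0.39, -0.26 and -0.19 in the MFAP5 arrays, against 0.19, 0.48 and 0.38 in the Control arrays. All 3 MFAP5 values lay below all 3 Control values. The log2 difference was -0.63 ± 0.11 (SE over 3 arrays a group; adjusted p by limma = 0.0220), or 64.6% of the Control signal with a 95% interval of 53.9% to 77.5%. Ndufv1, the core subunit that binds NADH and the flavin, had signals of -0.24, -0.26 and -0.18 with MFAP5, against 0.18, 0.28 and 0.32 in the controls. Here too the groups did not overlap, at a difference of -0.48 ± 0.095 (SE over 3 arrays a group; adjusted p by limma = 0.0310). Its 3 probe sets lay close together, at -0.53, -0.49 and -0.43, and 1 of them passed on its own.

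Among the other N module genes, the accessory subunits Ndufa7 and Ndufa6 had differences of -0.39 and -0.36 and missed the threshold (limma adjusted p = 0.0699 and 0.0899). The 5 probe sets of Ndufa7 ran only from -0.42 to -0.33, each with groups that did not overlap. Ndufv2, the core partner of Ndufv1, was at -0.25, and the accessory subunit Ndufv3 at -0.23 (adjusted p = 0.195 and 0.227). Ndufs4, an accessory subunit whose loss gives a Leigh-like disease in mice, had a difference of -0.055 with a 95% interval of -0.30 to 0.19. Ndufa2, with 0.054 and an interval of -0.20 to 0.31, and Ndufa12, with 0.25 and an interval of -0.065 to 0.57, were the 2 of 44 genes with a higher mean in the MFAP5 arrays, and neither passed the threshold.

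In the Q module, which passes electrons to ubiquinone, all 5 measured genes had lower signals in every MFAP5 array than in any Control array. The same held for 17.8% of all genes. In this module 1 gene passed the threshold, as lower, beside 2.79% of all genes. Ndufs3, a core subunit that joins the N module to the base of the arm, had signals of -0.27, -0.35 and -0.21 with MFAP5, against 0.21, 0.31 and 0.22 in the controls. The MFAP5 arrays were all low, with replicate 2 the lowest, at a difference of -0.52 ± 0.096 (SE over 3 arrays a group; adjusted p by limma = 0.0231), or 69.6% of the Control signal. The core iron-sulfur subunits Ndufs7 and Ndufs8 had differences of -0.47 and -0.37 (limma adjusted p = 0.0527 and 0.0849). Of the 6 probe sets of Ndufs8, 1 passed at -0.65, and the one nearest to 0 was at -0.055. The accessory subunit Ndufa9, which binds NADPH near the quinone site, was at -0.41 with tightly grouped MFAP5 values of -0.17, -0.16 and -0.14, against 0.14, 0.34 and 0.26 in the controls (adjusted p = 0.0605). Ndufa5 had the difference nearest to 0 of this module, at -0.26 (adjusted p = 0.197). Of the 6 nuclear core subunits measured over both modules, 3 fell, with a median of -0.48. Among the 28 accessory subunits 2 fell, with a median of -0.29, where 2.79% of all genes fell. Whether these medians differ was not tested.

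In the proximal membrane arm, which leads from the quinone site into the membrane, 1 of 8 measured genes fell and all 8 had a lower mean. The shares over all genes were 2.79% and 65.6%. Ndufa10, an accessory subunit on the matrix face, had signals of -0.32, -0.27 and -0.18 with MFAP5, against 0.18, 0.52 and 0.33 in the controls. The groups did not overlap, and Control replicate 2 was the highest array, at a difference of -0.60 ± 0.12 (SE over 3 arrays a group; adjusted p by limma = 0.0285), or 66.0% of the Control signal. Its 2 probe sets were at -0.84, which passed, and -0.36, which did not. Ndufs5, a subunit on the intermembrane face, was at -0.47 (adjusted p = 0.0539), Ndufc1 at -0.34 (0.0991) and Ndufa8 at -0.33 (0.114). Ndufa3, Ndufc2 and Ndufa13 had small differences of -0.21, -0.19 and -0.13 in which the groups still did not overlap. Ndufa13, known also as GRIM-19, had small spreads, with -0.054, -0.070 and -0.051 in the MFAP5 arrays against 0.051, 0.0996 and 0.074 in the Control arrays. Ndufa1 overlapped between the groups, at -0.077 with an interval of -0.34 to 0.18.

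In the distal membrane arm, built around the proton channels farthest from the quinone site, 1 of 11 genes fell and all 11 had a lower mean. The groups did not overlap in 7, all lower with MFAP5. Over all genes these shares were 2.79%, 65.6% and 17.8%. Ndufb3, a small accessory subunit that spans the membrane, had signals of -0.27, -0.17 and -0.19 with MFAP5, against 0.17, 0.31 and 0.20 in the controls. Its difference was -0.44 ± 0.096 (SE over 3 arrays a group; adjusted p by limma = 0.0477), or 73.8% of the Control signal, the closest to the threshold of the 5 calls. In 6 more subunits of this arm the groups did not overlap, from Ndufb1 at -0.34 to Ndufb11 at -0.26. They were Ndufb1, Ndufb8, Ndufb10, Ndufb9, Ndufb2 and Ndufb11, with limma adjusted p between 0.109 and 0.206. Ndufb7 was at -0.32 with groups that overlapped (adjusted p = 0.251).

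Ndufb4, Ndufb5 and Ndufb6 varied widely among the Control arrays. Ndufb4 had -0.14, 0.14 and -0.22 with MFAP5, against -0.30, 0.24 and 0.95 in the controls, and its interval ran from -0.99 to 0.26. Ndufb6 had -0.11, -0.13 and -0.069 with MFAP5, against 0.54, -0.40 and -0.40 in the controls. The MFAP5 arrays thus lay between Control replicate 1 and the other controls, and the difference of -0.020 ± 0.23 (SE over 3 arrays a group; adjusted p by limma = 0.972) was 0.29 without Control replicate 1 (adjusted p = 0.0651). In Ndufb5, too, the MFAP5 arrays lay between Control replicate 1 and the other controls, at -0.035, -0.117 and -0.055 with MFAP5 against 0.49, -0.20 and -0.22 in the controls.

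**Figure D2:**
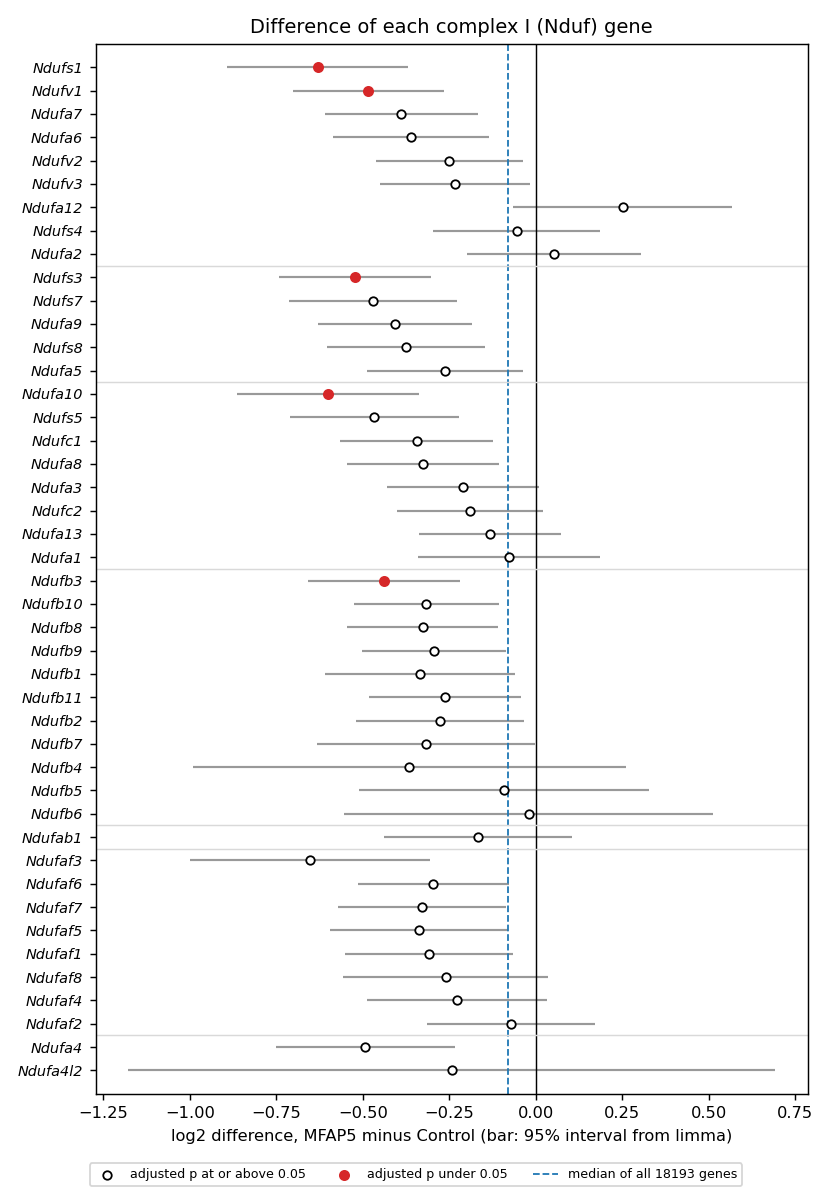
Log2 difference, MFAP5 minus Control, of the 44 genes in the order of the heat map, with 95% intervals from limma. The 5 filled points passed the threshold, and the dashed line is the median of all genes at -0.08.

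Probe sets of the same gene did not always move together. In 8 of the 22 genes with more than 1 probe set, probe sets had differences of opposite sign, and of the 88 probe sets limma called 8 lower and 1 higher (75 had a lower mean, where 59.4% of all probe sets did), beside 1.72% and 1.56% of all 45037 probe sets tested. For Ndufb6, probe set 1434057_at had -0.30, -0.23 and -0.17 with MFAP5, against 0.26, 0.25 and 0.17 in the controls. Probe set 1434056_a_at of the same gene had 0.086, -0.036 and 0.036 with MFAP5, against 0.83, -1.04 and -0.96 in the controls, so Control replicate 1 lay above and Control replicates 2 and 3 below all MFAP5 arrays. The same split was seen for Ndufb5, where 1448589_at had a difference of -0.40 with groups that did not overlap, and 1417102_a_at had 0.66, -0.62 and -0.59 in the 3 controls.

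Ndufab1, the mitochondrial acyl carrier protein, which sits in both arms of the complex and serves fatty acid and lipoic acid synthesis, had a gene mean of -0.17 (adjusted p = 0.471). Its probe set 1428159_s_at had -0.48, -0.42 and -0.33 with MFAP5, against 0.34, 0.33 and 0.43 in the controls, and passed at -0.78 ± 0.11 (SE over 3 arrays a group; adjusted p by limma = 0.00967). Its other 4 probe sets lay between -0.35 and 0.27 and did not pass. For Ndufb9 the probe sets 1436803_a_at and 1452184_at passed at -0.58 and -0.52, and 1455934_at was at 0.21. For Ndufa12 the probe set 1425919_at passed in the other direction, with 0.64, 0.28 and 1.46 with MFAP5 against -0.48, -0.69 and -0.28 in the controls. Its difference was 1.27 ± 0.27 (SE over 3 arrays a group; adjusted p by limma = 0.0462), while the other 3 probe sets of Ndufa12 lay between -0.28 and 0.019. The probe sets of Ndufs4 ran from -0.51 to 0.26 and those of Ndufc2 from -0.55 to 0.12, with none past the threshold. The labels do not state which part of a transcript each probe set reads.

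**Figure D3:**
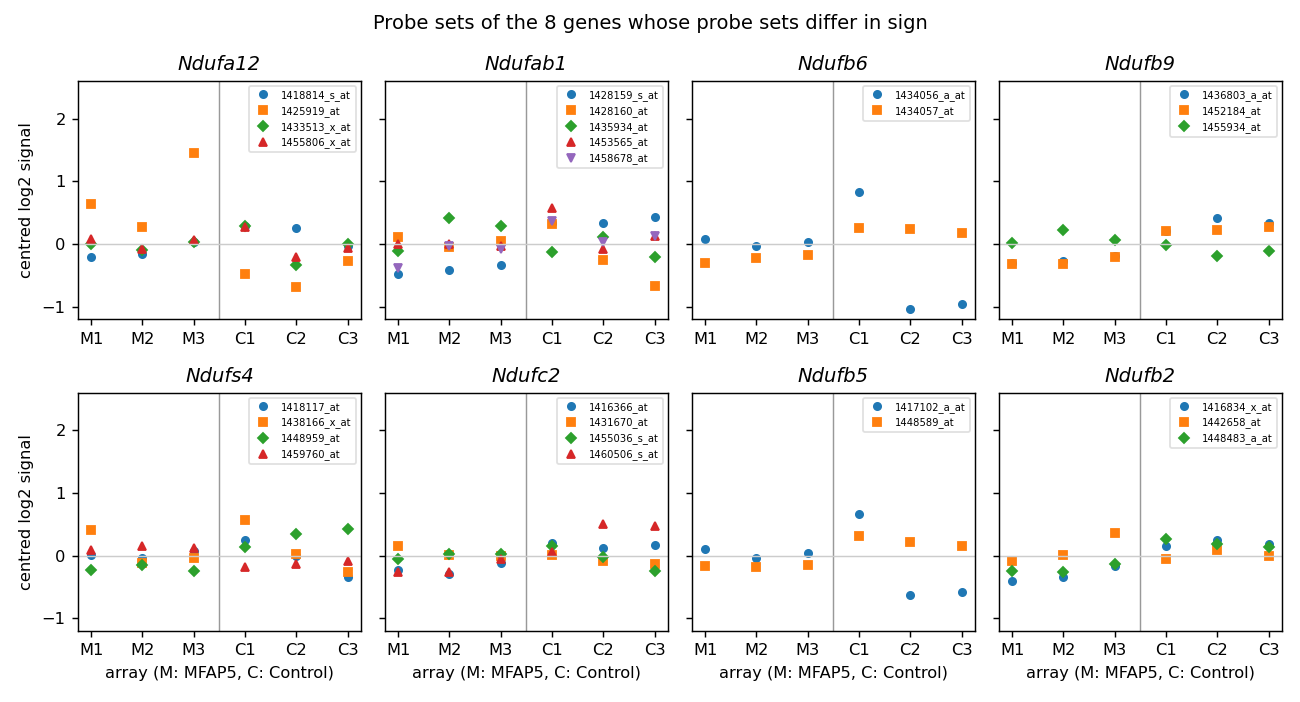
Centred log2 signal of every probe set of the 8 genes whose probe sets differed in sign, in the 3 MFAP5 arrays (M1 to M3) and the 3 Control arrays (C1 to C3). One probe set each of Ndufb5 and Ndufb6 separates Control replicate 1 from Control replicates 2 and 3, and 1 of Ndufa12 is higher with MFAP5.

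Assembly factors had 8 measured genes, all with a lower mean, and 0 passed the threshold, with 5 lower at an unadjusted p under 0.05. Among all genes 65.6% had a lower mean, 2.79% passed as lower and 14.4% were lower at an unadjusted p under 0.05. Ndufaf3, which acts early in building the Q module, had the lowest difference of all 44 genes, with -0.23, -0.16 and -0.13 in the MFAP5 arrays against 0.13, 0.68 and 0.63 in the controls. Control replicate 1 stood far below the other controls, and the difference was -0.65 ± 0.15 (SE over 3 arrays a group; adjusted p by limma = 0.0571). Without Control replicate 1 it was -0.83 (adjusted p = 0.00580), with quantile normalization -0.65 (0.0400) and under array weights -0.78 (0.00262). Without any of the other arrays Ndufaf3 did not pass, at -0.67 to -0.55 (limma adjusted p between 0.113 and 0.23). It also missed when the model took in the spike-in signal (-0.47, adjusted p = 0.0583) and without moderation (adjusted p = 0.251). Ndufaf5, an arginine hydroxylase of Ndufs7, was at -0.34, Ndufaf7, a methyltransferase, at -0.33, Ndufaf1, of the membrane arm's assembly complex, at -0.31 and Ndufaf6 at -0.30, with adjusted p between 0.143 and 0.162. Ndufaf8, Ndufaf4 and Ndufaf2 were at -0.26, -0.23 and -0.072, the last with an interval of -0.31 to 0.17.

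Ndufa4 and its paralog Ndufa4l2 carry the name without being regular complex I subunits. Ndufa4 is now counted as a subunit of cytochrome c oxidase, complex IV, and had -0.35, -0.41 and -0.12 with MFAP5, against 0.12, 0.30 and 0.18 in the controls, at a difference of -0.49 ± 0.11 (SE over 3 arrays a group; adjusted p by limma = 0.0549). It passed without MFAP5 replicate 3 (-0.58, adjusted p = 0.0468) and without Control replicate 1 (-0.53, adjusted p = 0.0321). Without any of the other arrays Ndufa4 did not pass (limma adjusted p between 0.158 and 0.205). It passed under array weights (-0.50, adjusted p = 0.0105). It missed when the model took in the spike-in signal (-0.45, adjusted p = 0.137) and without moderation (adjusted p = 0.193). Ndufa4l2, which hypoxia-inducible factor raises and which is known from pericytes and hypoxic cells, had 0.21, 0.12 and -1.51 with MFAP5, against -0.45, -0.019 and 0.019 in the controls. MFAP5 replicate 3 alone was far below the rest, and the difference of -0.24 turned to 0.32 without it, with neither past the threshold (limma adjusted p = 0.767 and 0.376).

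Promoter windows, from 250 bases before to 50 bases after a transcription start, were found for 39 of the 44 genes in RefSeq (GRCm38.p6). They were searched on both strands for short motifs of factors that are known to act on nuclear genes of mitochondria. The motifs were the 10-base palindrome of NRF1, CCGGAAGT for ETS factors such as GABPA, AAGATGGC for YY1 and AAGGTCA for the estrogen-related receptors. The YY1 letters were present in 7 of 39 complex I genes (17.9%), against 3.19% of the 27025 genes in the table. The NRF1 motif was present in 2 (5.1%, against 1.07%), the ETS letters in 1 (2.6%, against 4.31%) and the receptor letters in 3 (7.7%, against 5.38%). With any of the 4 there were 13 genes (33.3%, against 13.3%), and no gene held more than 1. The median log2 difference of the 7 genes with the YY1 letters was -0.33, and that of the 32 without was -0.32. The 7 stretches are shown because they were the commonest match, and are given 5′ to 3′ on the gene's own strand, plus for Ndufa3, Ndufaf8 and Ndufs7 and minus for the others, with the YY1 letters in capitals. The letters began 10 to 38 bases after the start in all 7 and contain ATG, the start codon triplet, and whether a match is the start of a reading frame was not tested.
Ndufa3, chr7:3617385-3617412: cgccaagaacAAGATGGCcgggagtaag
Ndufa9, chr6:126849098-126849125: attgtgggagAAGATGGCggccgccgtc
Ndufaf8, chr11:120098934-120098961: ggcagggcccAAGATGGCggcgccctcg
Ndufb8, chr19:44555393-44555414: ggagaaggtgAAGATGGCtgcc
Ndufc1, chr3:51408916-51408943: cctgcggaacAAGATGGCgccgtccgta
Ndufs4, chr13:114388045-114388069: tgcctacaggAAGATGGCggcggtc
Ndufs7, chr10:80249463-80249490: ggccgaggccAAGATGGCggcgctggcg

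Of the 5 members past the threshold, 4 had a promoter window, and only that of Ndufs3 held one of the 4 motifs. It is shown with the ETS letters, which lie in reverse complement from the start site onward, in capitals (chr2:90904672-90904971, minus strand).
Ndufs3: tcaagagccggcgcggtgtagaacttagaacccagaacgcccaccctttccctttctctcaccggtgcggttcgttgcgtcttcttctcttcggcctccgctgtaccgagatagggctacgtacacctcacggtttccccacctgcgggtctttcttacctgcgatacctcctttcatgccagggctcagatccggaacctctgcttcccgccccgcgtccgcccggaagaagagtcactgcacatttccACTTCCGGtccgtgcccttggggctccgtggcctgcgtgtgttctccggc

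Other genes that complex I needs were also lower where they were called. Of 10 measured assembly factors outside the Nduf names, 3 fell and 0 rose, with a median of -0.28 and all 10 lower in mean. Among all genes 2.79% fell, 0.759% rose and 65.6% were lower in mean. Nubpl, which delivers iron-sulfur clusters to complex I, fell to -0.28, -0.25 and -0.15 with MFAP5, against 0.15, 0.59 and 0.44 in the controls (-0.62 ± 0.13, SE over 3 arrays a group; adjusted p by limma = 0.0384). Ecsit and Tmem126b, of the assembly complex of the membrane arm, fell by 0.61 and 0.54 (adjusted p = 0.0358 and 0.0189). Among 12 genes of iron-sulfur cluster assembly 1 fell, Isca1 at -0.42 (adjusted p = 0.0477), while Hscb and Fdx1, at -0.79 and -0.58, missed the threshold (0.0524 and 0.0548). Of 7 mitochondrial complex I genes, 1 was measured, ND5, with -0.079, -0.158 and -0.104 with MFAP5 against 0.92, 0.079 and 0.17 in the controls. Its difference of -0.50 did not pass (adjusted p = 0.223), and Control replicate 1 was far above the other controls.

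Of 8 complex II genes, which feed ubiquinone from succinate, 1 fell, the iron-sulfur subunit Sdhb at -0.51 (limma adjusted p = 0.0251), with Sdha and Sdhaf2 at -0.34 and -0.25 (0.118 and 0.237). Of 15 genes of NADH shuttles and other quinone reductases 3 fell. These were Gpd1, the cytosolic glycerol phosphate dehydrogenase, at -2.20, and the electron transfer flavoprotein genes Etfa and Etfb at -0.62 and -0.61 (adjusted p = 8.95e-04, 0.0145 and 0.0339). Of 13 regulators of mitochondrial biogenesis 1 fell, the coactivator gene Ppargc1a, with -0.39, -0.37 and -0.29 with MFAP5 against 0.56, 0.44 and 0.70 in the controls (-0.91 ± 0.11, SE over 3 arrays a group; adjusted p by limma = 0.00247). Ppargc1b and Polrmt, at -0.65 and -0.33, did not pass (0.157 and 0.162), and the median of this list was -0.030. Beside the counts of these lists, 2.79% of all genes fell and 0.759% rose.

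Some other mitochondrial lists had medians of similar size, while the 8 complex II genes had a median of -0.18. Genes of complexes III, IV and ATP synthase had a median of -0.25 with 7 of 43 lower. Mitochondrial ribosomal proteins had a median of -0.31 with 7 of 76 lower, and 0 were higher in either list. Limma called 2.79% of all genes lower and 0.759% higher. The medians of the 44 complex I genes by array were -0.14, -0.12 and -0.11 in MFAP5 replicates 1 to 3, and 0.13, 0.23 and 0.17 in Control replicates 1 to 3. Whether the lists differ from each other was not tested.

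**Figure D4:**
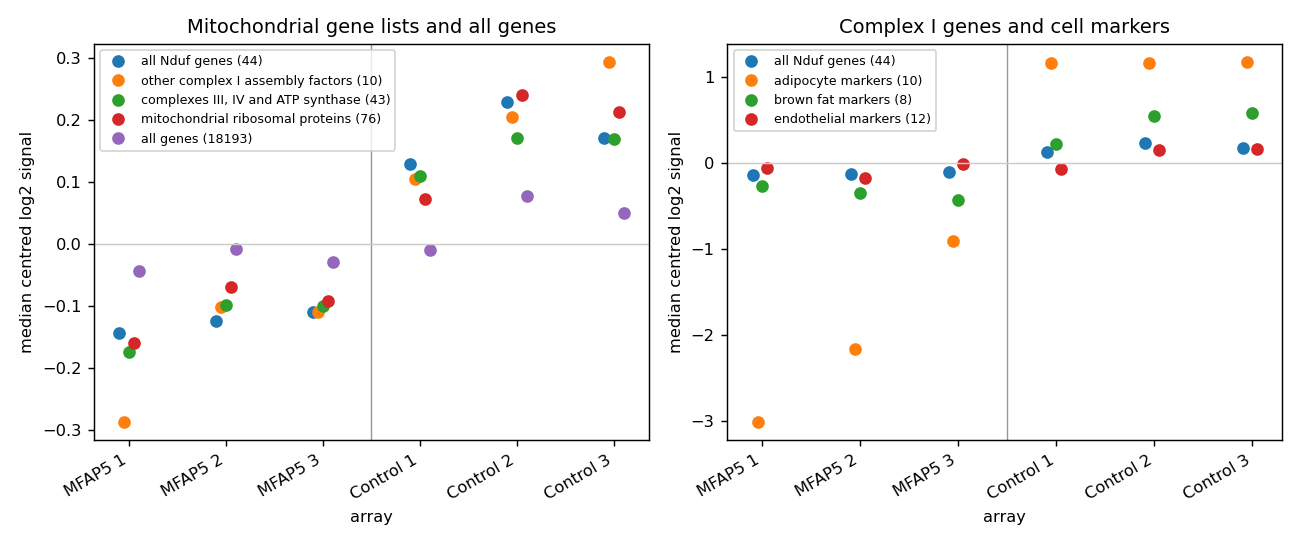
Median centred log2 signal of gene lists in each array, with the number of genes in brackets. The left panel sets the complex I genes beside other mitochondrial lists and all genes, and the right panel sets them beside cell markers on a wider scale, where the adipocyte markers of the MFAP5 arrays reach -3.01.

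Markers of some other cell types moved with the same groups. Over all genes, limma called 2.79% lower and 0.759% higher, and 17.8% were lower with groups that did not overlap. All 10 measured adipocyte markers had lower signals in every MFAP5 array than in any Control array, and 8 fell. The 3 with the smallest p were Slc2a4, the insulin-responsive glucose transporter, at -2.60, Lep, which encodes leptin, at -3.02, and Pparg, the adipogenic nuclear receptor, at -2.45 (limma adjusted p between 1.42e-04 and 0.00146). The medians of all 10 by array were -3.01, -2.16 and -0.91 with MFAP5 against 1.16, 1.16 and 1.17 in the controls. Of 8 genes of brown fat 4 fell, Cox7a1 at -1.61, Cox8b at -2.81, Cidea at -1.53 and Ucp1 at -1.29 (limma adjusted p between 4.07e-04 and 0.0110), and the array medians of the list were -0.27, -0.35 and -0.43 with MFAP5 against 0.22, 0.54 and 0.58 in the controls. Dio2, the deiodinase that activates thyroid hormone, was the 1 brown fat gene with a higher mean with MFAP5, at 0.52 with groups that did not overlap (adjusted p = 0.210). Of 10 striated muscle genes 1 fell, Myl1 at -2.29 (adjusted p = 0.00247), while Actn3 at -0.70 and Mb at -0.29 did not pass. The groups overlapped in 6 of the 10, and Ckm, at 0.0585, was the 1 with a higher mean with MFAP5. Of 9 neutrophil genes 4 fell, among them S100a8 at -1.63, S100a9 at -1.22 and Mmp9 at -0.87. The other 5 were not called and overlapped between the groups. Csf3r, at 0.061, was the 1 of them with a higher mean with MFAP5. Cox8b, a subunit of cytochrome oxidase, is also one of the 43 genes of complexes III, IV and ATP synthase. The part of muscle, neutrophils or other cells in the complex I differences was not tested either.

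Of 12 endothelial markers 0 were called by limma, with 3 lower and 0 higher at an unadjusted p under 0.05. Over all genes, 14.4% were lower and 5.33% higher at that unadjusted p, and 2.79% and 0.759% were called. Tek, the angiopoietin receptor, was at -0.75, Pecam1 at -0.71 and Emcn at -0.31 (adjusted p = 0.0592, 0.132 and 0.206). The endothelial medians by array were -0.059, -0.169 and -0.015 with MFAP5 against -0.075, 0.15 and 0.17 in the controls, so Control replicate 1 lay within the MFAP5 range. Because the values were centred, they do not show whether endothelial markers were abundant in any array, and the cell type label could not be checked against levels. Of 8 fibroblast markers 1, Pi16, fell at -0.93 (adjusted p = 0.0336), while 7 had a higher mean with MFAP5. The median of this list was 0.28, with Dcn and Col1a2 at 0.36 each. At an unadjusted p under 0.05, 1 was lower and 3 were higher. Of 8 macrophage, 6 mesothelial and 8 pericyte and smooth muscle markers 0 were called, with 1, 1 and 1 lower and 1, 0 and 0 higher at an unadjusted p under 0.05. Cd68, Msln and Rgs5 had the smallest p of these lists, at -0.43, -0.34 and -0.45. The beta-actin signal near the 3' end minus that near the 5' end, a sign of RNA length, was 0.14, 0.082 and 0.036 with MFAP5 against -0.0048, -0.053 and -0.032 in the controls (exact permutation test, two-sided, p = 0.1, the smallest possible). The same measure for Gapdh was 0.0855, -0.038 and 0.034 with MFAP5 against -0.16, 0.033 and -0.033 in the controls. For Gapdh the groups overlapped (exact permutation test, two-sided, p = 0.4). The part of RNA length in the complex I differences was not tested.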

How the data were processed

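RNA was amplified, labelled with biotin and hybridized, per the labels' protocols. The deposited values are taken as log2 signals, from the values: every probe set's median over the 6 arrays lies within 5e-07 of 0, and the widest probe set spans 8.24 units. MAS5 is named in the submitters' processing notes, and what was done after it is not stated there. A natural log was not excluded, and differences would then be too small. Centring leaves no level, so dim probe sets were not filtered. Precision is limited by the number of arrays.

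The 64 control probe sets were left out of tests, leaving 45037. Of these 34945 had 1 gene symbol in the supplied platform annotation, 932 had several and 9160 were not listed. Each gene was given the average of its 1-symbol probe sets. The groups were compared with limma 3.58.1 in R 4.3.3 (lmFit, then eBayes with no trend), two-sided, with Benjamini-Hochberg adjustment over all 18193 genes and a threshold of 0.05. Motif letters were searched in RefSeq promoters (GRCm38.p6). Alternatives were other normalizations, the probe set with the largest SD, updated symbols, the replicate block, array weights, a spike-in covariate, no moderation and each sample left out.

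The members, lists and rules were chosen with earlier results of these data known. The rule named members past the threshold, the smallest p and both extremes of each role, the Ndufa4 pair, and up to 6 genes whose probe sets differed in sign. In other lists it named up to 3 genes with the smallest p. Other members, and probe sets singled out, were named after seeing their values.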

Additional observations from a re-analysis of the deposited data

How the results depend on the processing

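Quantile normalization gave 8 lower complex I genes, with medians of -0.27 for them and -0.0365 for all genes. The probe set with the largest SD gave 5 lower (2 of them among the 5 reported) and 1 higher complex I gene, a median of -0.36 and 223 higher genes of all. Array weights called 26 complex I genes, 2879 lower and 1125 higher genes, and 3825 lower and 3043 higher probe sets. The spike-in level as a covariate called 0, 316, 48, 495 and 354, and the unmoderated statistic 0, 1, 0, 0 and 0, where the main counts were 5, 508, 138, 774 and 704 while an unadjusted p under 0.05 was reached by 2771 and 2815 genes and by 6744 and 6433 probe sets. Over the 6 left-out samples these counts ran from 0 to 19, 205 to 1914, 14 to 760, 251 to 3369 and 90 to 2821, and the complex I median from -0.36 to -0.29. The count of 19 and the highest of the others came without Control replicate 1. Ndufb6 changed sign with each array centred on its median (0.015), with the probe set of largest SD (0.42) and with array weights (0.23), and ranged from -0.18 to 0.29 over left-out samples. Ndufs4 changed sign with array weights (0.032) and ranged from -0.12 to 0.011, Ndufa1 from -0.16 to 0.0074 and Ndufa4l2 from -0.55 to 0.32. None of these 4 genes passed the threshold in those settings. The cause of these changes was not tested. Fits with 1 sample left out also had fewer samples. Updated symbols and centring left the count at 5. Deviations of same-numbered arrays from their group means correlated at 0.18, 0.055 and 0.072 across genes. This cannot decide whether replicate numbers pair the samples, since differently numbered arrays were not compared. With the replicate block 5 complex I genes were called, 4 of them among those reported, with Ndufaf3 (-0.65, adjusted p = 0.0410) in place of Ndufb3 (-0.44, adjusted p = 0.0635). No detection call was applied, since the values carry no signal level, so dim probe sets could not be told from bright ones.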
